A study of Arabidopsis thaliana with 12 samples.

Results

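The genes described here encode UDP-glycosyltransferases (UGTs) of Arabidopsis thaliana, the thale cress. Every gene was taken whose symbol begins with UGT and a digit and which has a probe set that names no other gene. This gave 47 genes of the 13356 named on the array in that way, each with 1 probe set. The symbols were the means of selection, and no measured value decided which genes entered. The family itself was chosen with earlier results of these data known.

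The arrays hold RNA from the last 4 mm, approximately, of primary roots of seedlings 3 days after germination, moved for 6 h to fresh medium. The wild type Col-0 was placed on the solvent dimethyl sulfoxide (DMSO) as a control, or on indole-3-butyric acid (IBA) at 10 µM. The triple mutant ibr1ibr3ibr10 was treated in the same 2 ways, which gave 4 groups. Each group held 3 arrays (ATH1, Affymetrix), and the labels call the replicates independent, each from at least 120 pooled root tips. The sample titles give 0 h for the DMSO groups where the other labels give 6 h, and shorten the mutant to ibr3; 6 h and the triple mutant were used. All samples are whole root tips, so fewer cells of a type and less RNA per cell cannot be told apart. IBA is a storage form of auxin. Peroxisomal enzymes, IBR1, IBR3 and IBR10 among them, shorten its side chain and so release indole-3-acetic acid (IAA), the main active auxin. Comparing both genotypes therefore asks which changes on IBA depend on these enzymes.

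UGTs transfer a sugar from a UDP-sugar to a small acceptor molecule, which usually makes the acceptor more soluble and often inactive. Their acceptors include hormones (auxin, cytokinin, abscisic acid, salicylate), phenylpropanoids and flavonols, glucosinolate precursors, sterols and foreign compounds. The number after UGT names a group of related sequence. Members of 1 group can have different acceptors. Glycosylation is 1 of the routes by which roots inactivate auxin, beside conjugation to amino acids and oxidation. Acceptors named below are textbook background and were not measured.

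Levels are the deposited log2 values, and a log2 change of 1 is a doubling. A gene is said to have risen or fallen, or to be called, when its adjusted p was under 0.05 (limma, Benjamini-Hochberg over 22746 probe sets). The 47 genes were measured on separate probe sets, so levels are compared between arrays and not between genes. Of the 47, 10 had means under 3.24 in every group, the level below which the lowest 30% of probe sets lay, and 4 in some groups. The files hold no detection calls, so this level is a rank and not a measured background. Replicate arrays correlated with r from 0.9954 to 0.9976 over all probe sets. The bacterial poly-A transcripts spiked into the RNA were high on 2 of the 3 Col-0 IBA arrays, at mean levels of 5.31 and 5.51, while the third Col-0 IBA array, at 4.96, lay within the 4.76 to 5.025 of the other 9 arrays. Scaling to these spikes adds −0.44 to every Col-0 response and 0.40 to every genotype difference on IBA. Of the markers listed for the tissue, 2 of 18 for the root tip and 1 of 14 for the shoot had a probe set of their own. The root hair genes EXPA7 and EXPA18 had mean levels over both genes of 8.44 to 8.58 in Col-0 on DMSO, 8.53 to 8.66 in Col-0 on IBA, 8.13 to 8.27 in the mutant on DMSO and 7.76 to 7.81 in the mutant on IBA.

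In Col-0, 15 of the 47 UGT genes responded to 6 h of IBA: 11 rose and 4 fell. The rises were concentrated in 3 sequence groups and UGT87A2. In UGT73, 4 of 7 genes rose, in UGT76, 4 of 8, and in UGT84, 2 of 5. The UGT71, UGT72, UGT74, UGT78, UGT80, UGT85 and UGT88 groups held no gene that rose. Over all probe sets, 23.5% were called, 12.1% higher and 11.4% lower, against 31.9% of the UGT genes, 23.4% higher and 8.51% lower. The median change was 0.09 for the UGT genes and −0.04 for all probe sets. Scaled to the spikes, 6 UGT genes were higher and 22 lower, and the family median became −0.35 with that of all probe sets at −0.48. Centred on each array's median, 11 were higher and 8 lower. Quantile normalization gave 12 higher and 5 lower.

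In ibr1ibr3ibr10, 9 of the 47 genes responded: 8 rose and 1 fell. The risers were the same 4 UGT73 genes (UGT73B1, UGT73B4, UGT73B5 and UGT73D1), UGT87A2 and UGT76E12, which had also risen in Col-0, with UGT74D1 and UGT76B1, which had not been called there. No UGT gene was called in opposite directions in the 2 genotypes. Of all probe sets, 9.36% were called in the mutant, 5.49% higher and 3.87% lower, against 19.1% of the UGT genes. The medians were 0.01 for the UGT genes and −0.01 for all probe sets. Over the 47 genes the changes in both genotypes, which share no arrays, correlated with Pearson's r = 0.653 and Spearman's rho = 0.589. Over all probe sets r was 0.50 and rho 0.392. Genes are not independent replicates, and no test was attached.

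Group by group, the median log2 change in Col-0 and in the mutant was 0.76 and 0.62 for the 7 UGT73 genes, 0.33 and 0.10 for the 8 UGT76 genes and 0.16 and 0.14 for the 5 UGT84 genes. In UGT73, as in UGT76 and UGT84, the risers of Col-0 stood beside genes that did not rise. In UGT73 these were UGT73C1, UGT73C2 and UGT73C7, at −0.04, −0.06 and 0.10 in Col-0. The UGT73 gene at the median was UGT73D1 in Col-0 and UGT73B4 in the mutant, each called there. The medians were −0.18 and −0.04 for the 9 UGT71 genes, −0.07 and −0.06 for the 4 UGT72 genes and −0.11 and −0.08 for the 5 UGT85 genes. For the 3 genes each of UGT74 and UGT78 they were 0.09 and 0.00, and 0.12 and −0.16. Of the groups with 1 gene, UGT80B1 was at −0.25 and −0.14, UGT87A2 at 1.203 and 0.64 and UGT88A1 at 0.17 and −0.01. Under spike scaling the Col-0 values are each 0.44 lower, so the positive medians of UGT74, UGT76, UGT78 and UGT84 turn negative there.

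**Figure D1:**
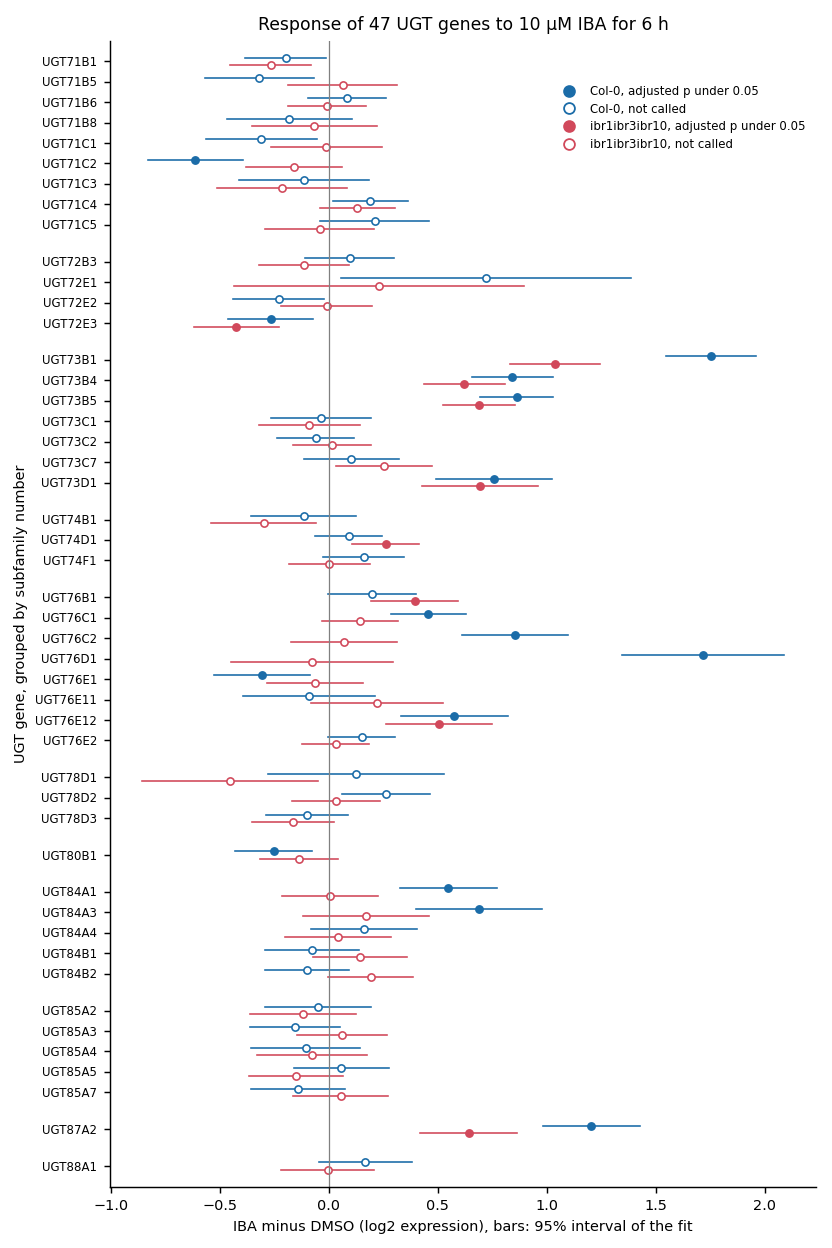
Log2 change on IBA (IBA minus DMSO, x axis) of each of the 47 UGT genes (y axis, ordered by sequence group) in Col-0 and in ibr1ibr3ibr10; points are limma estimates from 3 arrays a group and bars their 95% intervals. UGT73B1 at 1.75 and UGT76D1 at 1.72 lie farthest to the right in Col-0, and the 5 UGT85 genes lie between −0.15 and 0.06.

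In UGT73, 4 of 7 genes rose in both genotypes. UGT73B1, UGT73B4 and UGT73B5 are known as stress- and pathogen-responsive genes, and UGT73B4 can glucosylate foreign compounds such as TNT. UGT73B1 (AT4G34138) had the largest rise of the family. Its levels were 5.31, 5.49 and 5.51 in Col-0 on DMSO, 7.06, 7.11 and 7.40 in Col-0 on IBA, 6.05, 6.05 and 6.02 in the mutant on DMSO, and 6.97, 7.08 and 7.18 in the mutant on IBA. All IBA arrays lay above all DMSO arrays, and the 3 mutant DMSO arrays lay above the 3 Col-0 DMSO arrays, while on IBA the genotypes overlapped. The change was 1.75 ± 0.10 (SE), 3.37-fold, in Col-0 (adjusted p = 3.33e-08) and 1.04 ± 0.10, 2.05-fold, in the mutant (adjusted p = 1.94e-05, limma).

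UGT73B4 (AT2G15490) and UGT73B5 (AT2G15480) are neighbours on chromosome 2. UGT73B4 read 8.13, 8.27 and 8.20 in Col-0 on DMSO, 8.98, 9.06 and 9.09 in Col-0 on IBA, 8.77, 8.85 and 8.62 in the mutant on DMSO, and 9.24, 9.50 and 9.36 in the mutant on IBA. The 4 groups did not overlap, and the order from low to high was Col-0 on DMSO, mutant on DMSO, Col-0 on IBA, mutant on IBA. UGT73B5 read 6.96, 6.95 and 6.91 in Col-0 on DMSO, 7.80, 7.75 and 7.85 in Col-0 on IBA, 7.25, 7.32 and 7.15 in the mutant on DMSO, and 7.80, 7.99 and 8.01 in the mutant on IBA. Here, too, every IBA array lay above every DMSO array, and the genotypes overlapped on IBA. The change of UGT73B4 was 0.84 ± 0.09 (SE) in Col-0 and 0.62 ± 0.09 in the mutant, whereas that of UGT73B5 was 0.86 ± 0.08 and 0.69 ± 0.08 (limma adjusted p at most 0.000444 for all 4 changes).

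UGT73D1 (AT3G53150) read 4.84, 5.26 and 4.83 in Col-0 on DMSO, 5.62, 5.69 and 5.89 in Col-0 on IBA, 5.42, 5.25 and 5.12 in the mutant on DMSO, and 5.82, 5.97 and 6.08 in the mutant on IBA. The IBA arrays lay above the DMSO arrays in both genotypes, by 0.76 ± 0.12 (SE, adjusted p = 0.000446) in Col-0 and 0.69 ± 0.12 (adjusted p = 0.00284, limma) in the mutant. Its neighbour UGT73C7 was at 0.10 in Col-0 and 0.25 in the mutant, neither called, and UGT73C1 and UGT73C2 were dim in every group. Scaled to the spikes, the Col-0 changes of UGT73B1, UGT73B4 and UGT73B5 stayed called at 1.31, 0.40 and 0.42, and that of UGT73D1 was 0.32 with an adjusted p of 0.0951. The shoot marker RCA, which encodes Rubisco activase, had the same order of group means as UGT73B4 and UGT73B5: 4.93 to 5.29 in Col-0 on DMSO, 6.09 to 6.28 in Col-0 on IBA, 5.69 to 5.78 in the mutant on DMSO and 6.20 to 6.57 in the mutant on IBA. RCA rose by 1.08 in Col-0 and 0.63 in the mutant. Its part in the results for UGT73 and UGT87A2 was not tested.

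UGT87A2 (AT2G30140), known for a role in flowering time, followed the same course. It read 6.66, 6.60 and 6.47 in Col-0 on DMSO, 7.61, 7.85 and 7.88 in Col-0 on IBA, 7.15, 7.23 and 7.08 in the mutant on DMSO, and 7.59, 7.85 and 7.95 in the mutant on IBA. On DMSO the mutant arrays lay above the Col-0 arrays, and on IBA the genotypes overlapped. The change was 1.203 ± 0.10 (SE, adjusted p = 1.61e-06) in Col-0 and 0.64 ± 0.10 (adjusted p = 0.00137, limma) in the mutant.

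UGT76E12 (AT3G46660) was a dim gene on DMSO. It read 2.86, 2.73 and 2.66 in Col-0 on DMSO, 3.26, 3.34 and 3.38 in Col-0 on IBA, 2.87, 2.71 and 2.92 in the mutant on DMSO, and 3.08, 3.61 and 3.33 in the mutant on IBA. Its IBA arrays lay above its DMSO arrays in both genotypes, by 0.58 ± 0.11 (SE, adjusted p = 0.00194) in Col-0 and 0.51 ± 0.11 (adjusted p = 0.0122, limma) in the mutant. With dim values raised to 3.24, the UGT76E12 changes were 0.08 and 0.15 and the calls ended. The mutant call also ended without the second mutant DMSO array (adjusted p = 0.0663), and the Col-0 call under spike scaling (change 0.14).

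**Figure D2:**
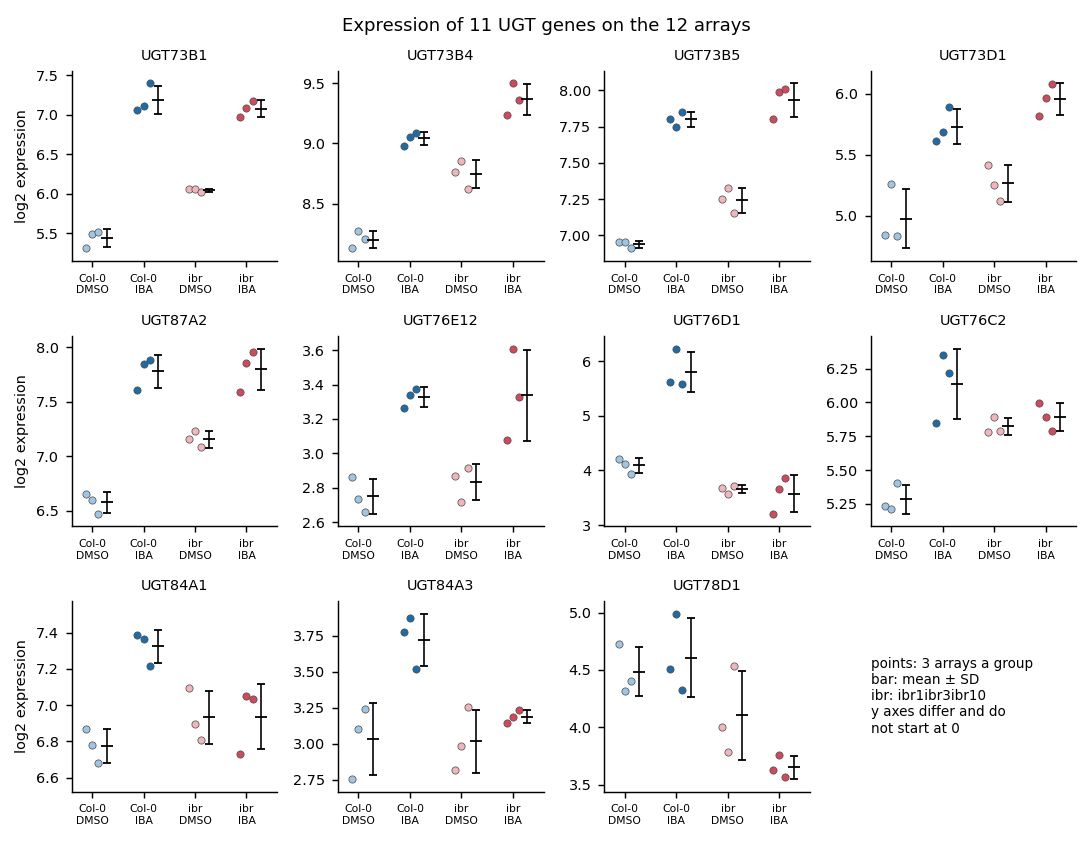
Deposited log2 level (y axis) on each of the 12 arrays, by group (x axis), for the 11 UGT genes whose array values are given in the text; points are arrays, and the bars are the mean and SD of 3. The 4 UGT73 genes plotted and UGT87A2 are higher on IBA in both genotypes, while UGT76D1 stands at 5.58 to 6.23 in Col-0 on IBA and at 3.21 to 4.22 on the other arrays.

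Of the 47 genes, 5 rose in Col-0 and were not called in the mutant, a share of 10.6% against 7.53% of all probe sets: UGT76D1, UGT76C1, UGT76C2, UGT84A1 and UGT84A3. UGT76D1 (AT2G26480), which acts on dihydroxybenzoic acids formed from salicylate, had the largest difference between genotypes in the family. Its levels were 4.22, 4.12 and 3.94 in Col-0 on DMSO, 5.62, 6.23 and 5.58 in Col-0 on IBA, 3.67, 3.58 and 3.71 in the mutant on DMSO, and 3.21, 3.66 and 3.86 in the mutant on IBA. The Col-0 IBA arrays stood above the other 9, and in the mutant the 2 media overlapped. The change was 1.72 ± 0.17 (SE), 3.29-fold, in Col-0 (adjusted p = 6.83e-06) and −0.08 ± 0.17 in the mutant (adjusted p = 0.849, limma), with a 95% interval in the mutant from −0.45 to 0.29.

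The cytokinin N-glucosyltransferases UGT76C2 (AT5G05860) and UGT76C1 (AT5G05870) are neighbours on chromosome 5. UGT76C2 read 5.24, 5.21 and 5.41 in Col-0 on DMSO, 5.85, 6.35 and 6.22 in Col-0 on IBA, 5.78, 5.89 and 5.79 in the mutant on DMSO, and 5.99, 5.89 and 5.79 in the mutant on IBA. Col-0 arrays on IBA lay above those on DMSO, the mutant arrays overlapped between media, and the mutant DMSO arrays lay above the Col-0 DMSO arrays. The change of UGT76C2 was 0.85 ± 0.11 (SE, adjusted p = 7.48e-05) in Col-0 and 0.07 ± 0.11 (adjusted p = 0.788, limma) in the mutant. UGT76C1 averaged 3.84 ± 0.12 and 4.30 ± 0.06 (SD, n = 3) in Col-0 on DMSO and IBA, and 4.00 ± 0.04 and 4.14 ± 0.10 in the mutant. It rose by 0.46 ± 0.08 (SE, adjusted p = 0.000849) in Col-0, and its change in the mutant was 0.14 ± 0.08 (adjusted p = 0.327, limma). Scaled to the spikes, the Col-0 change of UGT76C2 stayed called at 0.41 and that of UGT76C1 was 0.02 and not called.

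UGT84A1 (AT4G15480) and UGT84A3 (AT4G15490), neighbours on chromosome 4, form glucose esters of hydroxycinnamic acids. UGT84A1 read 6.87, 6.78 and 6.68 in Col-0 on DMSO, 7.39, 7.36 and 7.22 in Col-0 on IBA, 7.09, 6.90 and 6.81 in the mutant on DMSO, and 6.73, 7.05 and 7.03 in the mutant on IBA. UGT84A3 read 2.76, 3.101 and 3.24 in Col-0 on DMSO, 3.77, 3.87 and 3.52 in Col-0 on IBA, 2.82, 2.98 and 3.25 in the mutant on DMSO, and 3.14, 3.19 and 3.23 in the mutant on IBA. UGT84A3 was dim outside Col-0 on IBA, with means of 3.03 in Col-0 on DMSO and 3.02 and 3.19 in the mutant on DMSO and IBA, all below 3.24. For both genes the Col-0 IBA arrays lay above the other 9 arrays, and the mutant arrays overlapped between media. UGT84A1 rose by 0.55 ± 0.10 (SE, adjusted p = 0.00132) and UGT84A3 by 0.69 ± 0.13 (adjusted p = 0.00172, limma) in Col-0, and in the mutant they were at 0.00 ± 0.10 and 0.17 ± 0.13. Next to them in this run, UGT84A4 was at 0.16 in Col-0 and 0.04 in the mutant, neither called. Neither Col-0 call held under spike scaling, where the changes were 0.11 for UGT84A1 and 0.25 for UGT84A3.

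The falls were small. UGT71C2 fell in Col-0 from 6.01 ± 0.09 to 5.39 ± 0.21 (SD, n = 3), by 0.61 ± 0.10 (SE, adjusted p = 0.000498), and was at −0.16 ± 0.10 in the mutant (adjusted p = 0.388, limma). UGT72E3, which glucosylates monolignols, was the gene that fell in both genotypes, by 0.27 ± 0.09 (SE) in Col-0 (adjusted p = 0.0478) and 0.42 ± 0.09 in the mutant (adjusted p = 0.00906, limma). The sterol glucosyltransferase UGT80B1 fell by 0.25 ± 0.08 (SE, adjusted p = 0.0385) in Col-0, and UGT76E1 was also called lower there (adjusted p = 0.045, limma) but lay below 3.24 on every array, so no size is given. The Col-0 calls of UGT72E3, UGT76E1 and UGT80B1 each ended in a fit to the Col-0 groups only and with weighted arrays (adjusted p from 0.0647 to 0.1, limma). Each also ended without 1 of several arrays. Among the Col-0 arrays these were, for UGT72E3 and UGT80B1, the second or the third of either medium, with adjusted p up to 0.154 and 0.14, and for UGT76E1, the first or the third DMSO or the second or the third IBA array, up to 0.19. The calls also ended, at adjusted p from 0.0509 to 0.0614, without the first mutant DMSO array (all 3 genes), the second (UGT76E1, UGT80B1) or the third (UGT76E1), and without the second mutant IBA array (UGT72E3, UGT76E1) or the first or the third (UGT72E3). Under spike scaling the mutant change of UGT72E3 was −0.33 and not called (adjusted p = 0.475).

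Of the measured UGTs with IAA as a known acceptor, UGT74D1, which also acts on oxidised IAA, rose in the mutant and was not called in Col-0. Its means were 9.22 ± 0.05 and 9.31 ± 0.07 (SD, n = 3) in Col-0 on DMSO and IBA, and 9.28 ± 0.06 and 9.54 ± 0.06 in the mutant. The mutant change was 0.26 ± 0.07 (SE, adjusted p = 0.0347), the Col-0 change 0.09 ± 0.07 (adjusted p = 0.409), and the difference, 0.17 ± 0.10, was not called (adjusted p = 0.414, limma). The UGT74D1 call ended without any 1 of the 6 mutant arrays, with adjusted p from 0.0504 to 0.127. It also ended under spike scaling, median centring and a fit to the mutant groups only (adjusted p = 0.379, 0.0537 and 0.0511, limma). On IBA UGT74D1 was 0.23 higher in the mutant than in Col-0, not called (adjusted p = 0.0537, limma). Spike scaling, median centring, a random replicate block, either treatment of dim values and trended, robust eBayes called it there, and the other alternatives did not. UGT84B1, which makes the glucose ester of IAA, was dim in all groups, at −0.08 in Col-0 and 0.14 in the mutant, neither called. The other 4 genes of the auxin list, UGT74E2, UGT75D1, UGT84A2 and UGT76F1, were not analysed here.

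UGT76B1, which acts on isoleucic acid, salicylate and N-hydroxypipecolic acid, rose in the mutant from 9.33 ± 0.13 to 9.72 ± 0.08 (SD, n = 3), by 0.39 ± 0.09 (SE, adjusted p = 0.0164). In Col-0 its means were 9.15 ± 0.04 and 9.34 ± 0.17, a change of 0.20 ± 0.09 (adjusted p = 0.151), and the difference of 0.20 ± 0.13 was not called (adjusted p = 0.483, limma). The mutant call of UGT76B1 ended without the third mutant DMSO array (adjusted p = 0.0824) or the first or second mutant IBA array (adjusted p = 0.0503 and 0.0594).

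The remaining genes passed no test of the IBA response in the fit to the deposited values. None of the 3 measured abscisic acid glucosyltransferases was called, with Col-0 changes of 0.08 for UGT71B6, −0.18 for UGT71B8 and 0.21 for UGT71C5. The salicylate glucosyltransferase UGT74F1 was at 0.16 in Col-0 and 0.00 in the mutant; UGT74B1, of glucosinolate synthesis, was at −0.12 and −0.30. The 5 UGT85A genes, 4 of them in 1 run on chromosome 1, stayed between −0.15 and 0.06 in Col-0. The flavonol glucosyltransferase UGT78D2 was at 0.26 (adjusted p = 0.0616, limma) in Col-0 and 0.03 in the mutant. Its relative UGT78D3 was at −0.10 and −0.16. Among UGTs of monolignols and other phenylpropanoids, UGT72E2 was at −0.23 and −0.01 and UGT72B3 at 0.10 and −0.11. UGT72E1, which glucosylates coniferaldehyde, had the largest Col-0 change that was not called, and its arrays overlapped. They read 4.01, 3.79 and 3.55 in Col-0 on DMSO against 3.53, 4.78 and 5.21 on IBA, a change of 0.72 ± 0.31 (SE, adjusted p = 0.113, limma). Without the first Col-0 IBA array, the low 1 of the 3, the UGT72E1 change was 1.21 (adjusted p = 0.000421) and its difference of responses −0.98 (adjusted p = 0.0328, limma), both called. Of the other genes that were not called, UGT78D2 was called in Col-0 without the first mutant IBA array (adjusted p = 0.0488) and UGT74B1 in the mutant without the second, at −0.41 (adjusted p = 0.0405, limma). UGT78D2 was also called in Col-0 under quantile normalization, without the dimmest 30% of probe sets and with trended, robust eBayes (adjusted p = 0.0422, 0.0419 and 0.0129, limma). UGT72E2 was called lower in Col-0 under median centring and that eBayes (adjusted p = 0.0485 and 0.0385, limma). With that eBayes UGT74B1 was called lower in the mutant (adjusted p = 0.0411, limma). The others, UGT71B1, UGT71B5, UGT71C1, UGT71C3, UGT71C4, UGT76E2, UGT76E11, UGT84B2 and UGT88A1, were called in none of the 5 comparisons of the fit to the deposited values either. Calls gained under the alternatives are given only for genes called in that fit or on the acceptor lists, and other genes gained calls too. Median centring called 19 genes in Col-0, of which 15 were calls of the deposited fit. Quantile normalization called 17, of which 14 were. In Col-0, 28 of the 32 genes that were not called had a 95% interval within 0.5 log2 units of 0, and in the mutant 33 of 38.

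The difference between both responses, that of Col-0 subtracted from that of the mutant, asks which UGT responses differed between genotypes. It called 5 genes, all with the smaller response in the mutant (none was called in the other direction; at an unadjusted p under 0.05 limma gave 3 with a positive difference): UGT76D1, UGT76C2, UGT73B1, UGT87A2 and UGT84A1. Of all probe sets, 6.5% were called, 2.95% higher and 3.54% lower, against 10.6% of the UGT genes. The value was −1.79 ± 0.24 (SE) for UGT76D1 (adjusted p = 0.000407), −0.79 ± 0.16 for UGT76C2 (adjusted p = 0.00801) and −0.72 ± 0.14 for UGT73B1 (adjusted p = 0.00515, limma). It was −0.56 ± 0.15 for UGT87A2 (adjusted p = 0.0343) and −0.54 ± 0.15 for UGT84A1 (adjusted p = 0.0383, limma). UGT84A3 was at −0.52 ± 0.19 (adjusted p = 0.142) and UGT76C1 at −0.31 ± 0.11 (adjusted p = 0.139, limma). The fit to the deposited values thus did not show that their responses differed between genotypes. With dim values raised, however, the difference of UGT84A3 was called, at −0.48 (adjusted p = 0.0332, limma). UGT71C2, which fell in Col-0, was at 0.45 ± 0.14 (adjusted p = 0.0858), and was called at 0.56 without the third Col-0 IBA array (adjusted p = 0.0208, limma).

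These 5 differences were built in different ways from the groups, which share arrays between the comparisons given here. For UGT76D1 and UGT84A1 the genotypes differed on IBA, by −2.23 and −0.39, and were not called on DMSO, at −0.44 and 0.16. In a fit to the DMSO groups only, however, UGT76D1 was called lower in the mutant (adjusted p = 0.0386, limma). For UGT73B1, UGT87A2 and UGT76C2 the mutant was higher on DMSO, by 0.605, 0.58 and 0.54, and on IBA the genotypes were not called, at −0.11, 0.02 and −0.25. Without the first Col-0 IBA array, however, UGT76C2 was called lower in the mutant on IBA, at −0.39 (adjusted p = 0.0158, limma). Among the 11 genes that rose in Col-0, the mutant change as a ratio of the Col-0 change had a median of 0.534. It was above 0.7 for UGT73D1 (0.917), UGT76E12 (0.878), UGT73B5 (0.801) and UGT73B4 (0.738), and below 0.1 for UGT76C2 (0.08), UGT84A1 (0.007) and UGT76D1 (−0.045). UGT73B1 (0.591), UGT87A2 (0.534), UGT76C1 (0.311) and UGT84A3 (0.248) lay between. The genes were taken for their Col-0 rise, so these ratios are a description, and they hold for the deposited scale. Under spike scaling the median ratio was 1.083, with 1.79 for UGT73B4, 2.51 for UGT73D1, 0.942 for UGT84A1, 0.40 for UGT76C2 and 0.016 for UGT76D1.

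The difference call held under each alternative for UGT76D1 alone. Scaled to the spikes, it was −1.25 for UGT76D1 and stayed called, and −0.18 for UGT73B1, −0.25 for UGT76C2, −0.02 for UGT87A2 and −0.01 for UGT84A1, which did not; 17 UGT genes were then called higher and 1 lower, and the family median turned from −0.07 to 0.47, with all probe sets at 0.55. The calls of UGT87A2 and UGT84A1 also ended without any of 7 of the 12 arrays, with adjusted p up to 0.0913 and 0.101. Both ended without the second or the third Col-0 DMSO, the second Col-0 IBA, the first or second mutant DMSO or the first mutant IBA array, and also without the third Col-0 IBA array for UGT87A2 and the first for UGT84A1.

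**Figure D3:**
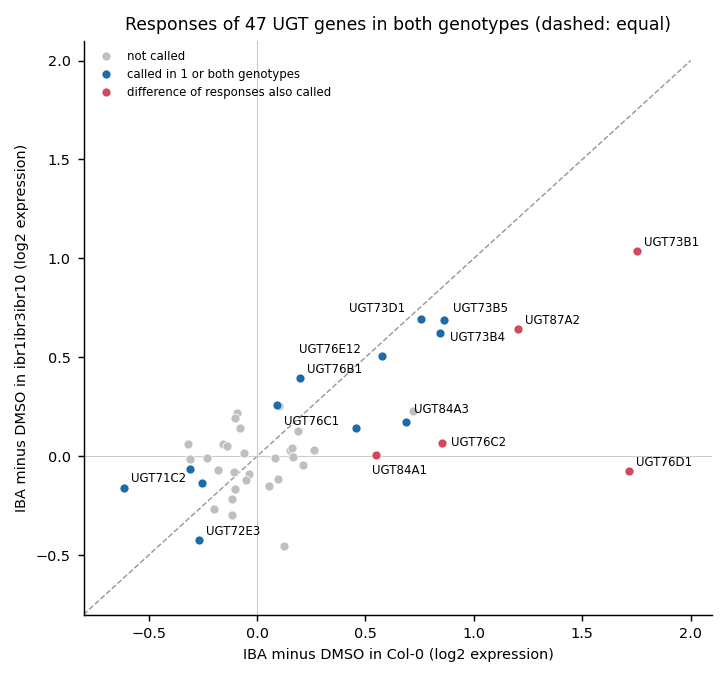
Log2 change on IBA of the 47 UGT genes in Col-0 (x axis) against ibr1ibr3ibr10 (y axis), with the line of equal change; colours mark the genes called in Col-0, in the mutant or in both, and those whose difference was called. UGT73B1 at 1.75 and 1.04 and UGT76D1 at 1.72 and −0.08 have nearly the same x value and differ in y.

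On DMSO, where no IBA was given, 4 UGT genes were called higher in the mutant than in Col-0 and none lower. The 4 were UGT73B1, UGT87A2, UGT73B4 and UGT76C2, all among the genes that rose on IBA in Col-0. Both comparisons subtract the same Col-0 DMSO arrays, and the share of such an overlap over all probe sets is not given here. At an unadjusted p under 0.05 (limma), 2 were lower, UGT76D1 at −0.44 and UGT71C2 at −0.35. Their mutant arrays lay below the Col-0 arrays. Both were called lower in a fit to the DMSO groups only (adjusted p = 0.0386 and 0.0484, limma). UGT71C2 was also called with weighted arrays (adjusted p = 0.0449) and without the third Col-0 IBA array (adjusted p = 0.0487, limma). Of all probe sets, 2.42% were called, 1.82% higher and 0.602% lower, against 8.51% of the UGT genes. The genotype difference was 0.605 ± 0.10 (SE, adjusted p = 0.00332) for UGT73B1, 0.58 ± 0.10 (adjusted p = 0.00725) for UGT87A2, and 0.55 ± 0.09 (adjusted p = 0.00326, limma) for UGT73B4. For UGT76C2 it was 0.54 ± 0.11 (adjusted p = 0.0203, limma). UGT73B5 missed the threshold at 0.30 ± 0.08 (adjusted p = 0.0581, limma), with the 3 mutant arrays above the 3 Col-0 arrays. Without the first mutant IBA array it was called (adjusted p = 0.0448, limma). A random replicate block, leaving out the dimmest 30%, trended, robust eBayes and weighted arrays also called it (adjusted p = 0.0413, 0.0341, 0.0155 and 0.0318, limma). Under the other alternatives UGT73B5 was not called.

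None of the 4 DMSO calls held under spike scaling, where the differences were 0.47 for UGT73B1, 0.45 for UGT87A2, 0.41 for UGT73B4 and 0.41 for UGT76C2. The family median on DMSO was 0.02, and turned to −0.11 under spike scaling and to −0.01 under median centring. The UGT76C2 call ended without any of 5 arrays, the first or second Col-0 DMSO array or any mutant DMSO array (adjusted p up to 0.0888). The same Col-0 DMSO arrays enter the Col-0 response and this comparison, so a shared error would move both.

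On IBA, 6 UGT genes differed between genotypes, 4 lower and 2 higher in the mutant. Of all probe sets, 11% were called, 5.95% higher and 5.08% lower, against 12.8% of the UGT genes, a share near the background. UGT76D1 was lower in the mutant by 4.69-fold (−2.23 ± 0.17 SE, adjusted p = 8.28e-07, limma). The flavonol rhamnosyltransferase UGT78D1 (AT1G30530) read 4.73, 4.32 and 4.41 in Col-0 on DMSO, 4.51, 4.99 and 4.32 in Col-0 on IBA, 4.00, 3.78 and 4.54 in the mutant on DMSO, and 3.63, 3.76 and 3.57 in the mutant on IBA. The mutant IBA arrays lay below all Col-0 arrays, and the mutant DMSO arrays overlapped Col-0. Its difference on IBA was −0.96 ± 0.19 (SE, adjusted p = 0.00348), and on DMSO −0.38 ± 0.19 (adjusted p = 0.40, limma). Neither the response of UGT78D1 nor the difference of its responses was called, the latter at −0.58 ± 0.27 (adjusted p = 0.264, limma). The root hair gene EXPA18 was also lower in the mutant on IBA, at −1.31, and on DMSO, at −0.46. The root hair gene EXPA7 was called at −0.27 on IBA, and was at −0.16 on DMSO without a call. The part of both genes in the UGT76D1 and UGT78D1 results was not tested.

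UGT84A3 was lower in the mutant on IBA by −0.53 ± 0.13 (adjusted p = 0.0178) and UGT84A1 by −0.39 ± 0.10 (adjusted p = 0.0249, limma). UGT76B1 was higher by 0.38 ± 0.09 (adjusted p = 0.016) and UGT73B4 by 0.32 ± 0.09 (adjusted p = 0.0249, limma). UGT73B4 was thus the gene called between genotypes on both media. Spike scaling called 24 genes higher and 2 lower, UGT76D1 at −1.83 and UGT78D1 at −0.55, and the family median went from 0.01 to 0.42. The calls of the other 4 did not hold without single arrays: without the first or second Col-0 IBA or the first mutant IBA array for UGT84A1 (adjusted p up to 0.119) and UGT84A3 (0.0884), without the second Col-0 or the first or second mutant IBA array for UGT76B1 (0.0815), and without the first or second Col-0 or the second or the third mutant IBA array for UGT73B4 (0.101).

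**Figure D4:**
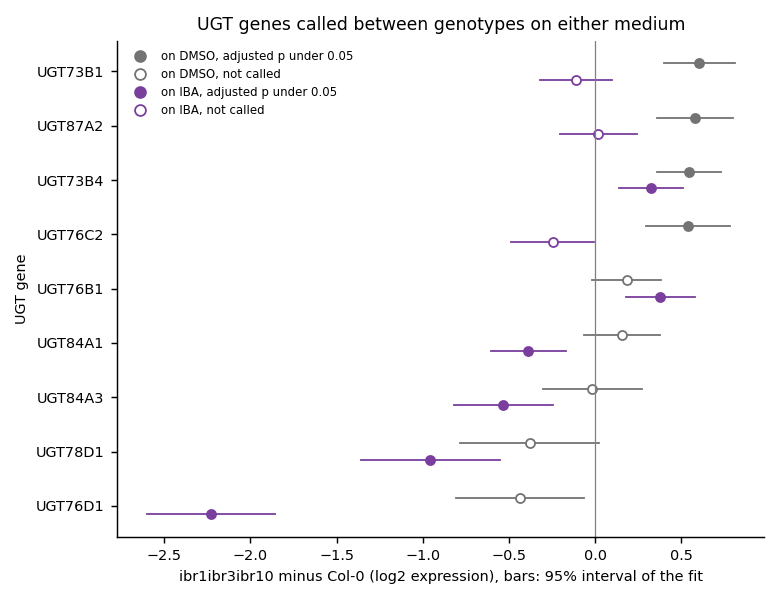
Mutant minus Col-0 in log2 units (axis of values) on DMSO and on IBA for the 9 UGT genes called in either comparison; points are limma estimates and bars 95% intervals, from 3 arrays a group. UGT73B1, UGT87A2 and UGT76C2 lie above 0 on DMSO at 0.54 to 0.605, and UGT76D1 lies at −2.23 on IBA.

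Many UGT genes stand side by side in the genome. By the gene order of the RefSeq annotation (TAIR10.1), 24 of the 47 lie in 10 runs of adjacent members, which make 14 adjacent pairs. In the pairs UGT73B5 and UGT73B4, UGT76C2 and UGT76C1, and UGT84A1 and UGT84A3, both genes rose in Col-0. UGT71C2 fell in Col-0 and its neighbour UGT71C1 was at −0.31 without a call, and in UGT73D1 with UGT73C7, UGT84A3 with UGT84A4 and UGT76E1 with UGT76E2 one gene was called and the other was not. Neighbours of 1 run can be close in sequence, and cross-hybridisation between them was not tested.

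Other genes that inactivate auxin or foreign compounds were set beside the family. Of all probe sets, 12.1% were called higher and 11.4% lower in Col-0, and 5.49% and 3.87% in the mutant. In the difference of responses these shares were 2.95% and 3.54%. Of 22 listed genes of auxin conjugation and oxidation, 7 had a probe set of their own. Of these, 5 rose and none fell in Col-0, while 1 rose and 2 fell in the mutant. A called difference of responses was found for 5, all toward a lower value in the mutant. GH3.3 and WES1, which join IAA to amino acids, rose by 5.31 and 2.33 in Col-0 and were at −0.41 and −1.10 in the mutant, where WES1 fell. AT1G14120 rose by 2.97 in Col-0 and was at 0.37 in the mutant. AT1G14130, in contrast, rose in both genotypes, by 1.55 and 1.07, and stood 0.53 higher in the mutant on DMSO. Of 30 listed detoxification genes, 4 were measured, and 3 rose and 1 fell in Col-0. The glutathione transferase genes GSTU22 and GSTU25 rose by 0.81 and 0.63 in Col-0 and by 0.64 and 0.56 in the mutant, and were higher in the mutant on DMSO by 0.46 and 0.40. GSTU20 rose by 0.68 in Col-0 and fell by 1.05 in the mutant, and NDB4, an NAD(P)H dehydrogenase gene, fell by 0.43 and 0.81. Under spike scaling the Col-0 rises of GSTU20, GSTU22 and GSTU25 were 0.24, 0.37 and 0.19 and were not called. Of 29 listed genes that supply UDP-sugars, 1 was measured, USP, at −0.04 in Col-0 and −0.09 in the mutant. It was called in none of the 5 comparisons.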

How the data were processed

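Per the submitters' processing notes, the deposited log2 values were computed by RMA in affy 1.40.0. This method corrects background, equalises intensity distributions between arrays and summarises each probe set, so it hides a change shared by most transcripts. The sources used here do not say which arrays were normalized as 1 set. Arrays give no read depth, and the precision rests on 3 per group.

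Of 22810 probe sets, 64 controls were left out. The platform annotation names 1 gene for 13513 of the rest, several for 503 and none for 8730; 3 probe sets naming a UGT with other genes were left out. Symbols were updated to RefSeq (TAIR10.1), which lacked 70 identifiers and lists 58 UGT symbols, 11 of them not analysed here. No probe or gene sequences were used here.

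Group means were fitted with limma 3.58.1 in R 4.3.3 (lmFit, eBayes, 8 residual and 5.62 prior degrees of freedom), with 5 two-sided contrasts and Benjamini-Hochberg adjustment over 22746 probe sets. The members, lists, tests and alternatives were chosen with earlier results of these data known. Array values are printed for up to 6 called genes with the largest changes per IBA comparison and 4 per genotype comparison. Every called member and every measured gene of the acceptor lists is named, with up to 4 called genes per companion list; UGT72E1 arrays were added after their values were seen. The alternatives were other scalings (median, quantile, 24 poly-A control probe sets), blocks by replicate number, 2 treatments of dim values, fits to the groups of a contrast only, a trended and robust eBayes, weighted arrays, tests over genes, stricter calls and fits without each array. On simulated data, 50, 100 and 50 of 22746 probe sets were changed by 0.5, 1 and 2 log2 units in Col-0 on IBA. These changes were recovered in 58%, 95% and 100% of cases for the Col-0 response, and in 32%, 87% and 100% for the difference of responses. The deposited data had many more calls, 5345 in the Col-0 response. The adjusted threshold therefore differed, and these rates need not hold for the deposited data.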

Additional observations from a re-analysis of the deposited data

Results flagged for a closer look

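For 5 UGT genes the response to IBA differed between genotypes by a test of the difference itself (mutant response minus Col-0 response, log2 units, limma, n = 3 arrays a group). The values were −1.79 for UGT76D1, −0.79 for UGT76C2, −0.72 for UGT73B1, −0.56 for UGT87A2 and −0.54 for UGT84A1. In each the mutant response was the smaller. Of all probe sets, 6.5% were called in this comparison. With spike scaling UGT76D1 was the only 1 of the 5 that stayed called.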

How the results depend on the processing

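The scaling to poly-A spikes changed the counts of called UGT genes most. It gave 28 in the Col-0 response (15 as deposited), 18 in the difference of responses (5), 26 between genotypes on IBA (6) and 0 on DMSO (4), where limma gave an unadjusted p under 0.05 for 4 higher and 3 lower. The cause of the higher spikes on 2 of the 3 Col-0 IBA arrays was not tested. Many values near 0 change sign under this scaling; among the named and listed genes, 5 results called under at least 1 of both scalings did so. On IBA the genotype difference became 0.396 for UGT80B1, 0.017 for UGT84A1, 0.38 for USP and 0.132 for EXPA7, and the Col-0 change of GT72B1 became −0.173. The difference of responses gave 3 calls after median centring and 3 at an adjusted p under 0.01. Between genotypes on IBA, 2 calls passed an adjusted p under 0.01 and 3 a change of at least 0.5. Leaving out each array in turn gave 12 to 17 calls in the Col-0 response, 7 to 10 in the mutant, 3 to 5 in the difference, 3 to 5 between genotypes on DMSO and 2 to 6 on IBA. All other alternatives left these counts within 1.5 times. Of the calls, 7 of 15, 5 of 9, 1 of 5, 0 of 4 and 2 of 6, in the same order, held under every alternative run other than the stricter thresholds.

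Of 18 same-numbered pairs of arrays, 2 had deviations correlating above 0.1 (range −0.209 to 0.165). The 6 such pairs on 1 medium were all positive, at 0.023 to 0.165. The random block by replicate number within each medium had a correlation of 0.0852. With the replicate number as a block, 13, 9, 4, 4 and 6 genes were called, and with a random block within each medium 15, 9, 5, 5 and 7. The fixed block ended the Col-0 calls of UGT72E3 and UGT76E1 and the difference call of UGT84A1 (adjusted p 0.0661, 0.0573 and 0.0561, limma).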

Other observations

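Some UGT genes carry other symbols in the annotation and were outside the 47 genes. GT72B1 (AT4G01070), listed under UGT72B1 among its older names and known for conjugating chlorinated pollutants and monolignols, rose in both genotypes. It read 8.19, 8.26 and 8.25 in Col-0 on DMSO, 8.48, 8.47 and 8.55 in Col-0 on IBA, 8.55, 8.503 and 8.615 in the mutant on DMSO, and 8.88, 8.997 and 8.89 in the mutant on IBA. In each genotype the IBA arrays lay above the DMSO arrays, and on each medium the mutant arrays lay above those of Col-0. The change on IBA was 0.27 ± 0.07 (SE, adjusted p = 0.0106) in Col-0 and 0.37 ± 0.07 (adjusted p = 0.0038, limma) in the mutant. The mutant stood higher by 0.32 on DMSO (adjusted p = 0.0212) and by 0.42 on IBA (adjusted p = 0.000746, limma). Under spike scaling the Col-0 change of GT72B1 was −0.173, its mutant change 0.46 (adjusted p = 0.131) and its genotype difference on DMSO 0.19 (adjusted p = 0.643, limma), none of them called.

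SGT (AT3G07020, UGT80A2), a sterol glucosyltransferase, fell in Col-0 by 0.34 ± 0.07 (SE, adjusted p = 0.00319) and was at −0.04 in the mutant, without a called difference of responses (adjusted p = 0.107, limma). With UGT80B1, both measured sterol glucosyltransferases were called lower in Col-0, where 11.4% of all probe sets were. The UGT80B1 call ended in a fit to the Col-0 groups only (adjusted p = 0.1) and with weighted arrays (adjusted p = 0.0647, limma). UF3GT (AT5G54060, UGT79B1), of anthocyanin synthesis, fell in Col-0 by 0.55 ± 0.16 (SE, adjusted p = 0.0188, limma) with overlapping arrays, and was at −0.14 in the mutant without a call. AT5G54010 (UGT79B6) was at −0.14 in Col-0 and 0.10 in the mutant. It was called in none of the 5 comparisons.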
